A study of Mus musculus with 12 samples.

Results

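Retinas of mice injected with silicate particles of 100 nm were set against retinas of mice injected with silicate particles of 20 nm. The comparison used every array whose label names silicate 100 nm or silicate 20 nm, which gave 6 of the 12 arrays of the series, and each 100 nm array was paired with the 20 nm array of the same replicate number. The question is which genes differ with the size of the particle when the material is the same. The remaining 6 arrays held gold particles of 100 or 20 nm and were used to estimate the spread and to set the size difference of silicate against that of gold.

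All mice were male C57BL/6 of 5 weeks, and the right eye received the injection into the vitreous. Tissue was taken on day 7 from 12 mice in each of the groups silicate 100 nm, silicate 20 nm, gold 100 nm, gold 20 nm and phosphate-buffered saline (PBS). Each tube pooled 4 retinas, so a group had 3 tubes and p-values measure the spread between pools. On each of these 2-colour Agilent arrays the particle tube was in the red dye Cy5 and a PBS tube in the green dye Cy3, with no dye swap. The sample annotation gives the sizes in nM, the protocol in nm as a diameter, and it names the strain of the PBS mice on the silicate arrays as C57BL/7 to C57BL/12, one number per array, where the protocol has C57BL/6 throughout. Dose and particle number are not given in the sources used here.

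Each value is a log2 ratio, particle tube over PBS tube, and a difference is the ratio on the silicate 100 nm array minus that on the silicate 20 nm array of the same slide, so a positive difference means more RNA with 100 nm. Replicate number and slide number are the same. Silicate 20 nm always lay at place 3 of a slide and silicate 100 nm at place 4, so place and size cannot be told apart. Between 67.6% and 72.8% of probes were well above background in Cy5 on the silicate arrays, and no spot was saturated. A gene was tested when its probe was well above background in Cy5 on all 3 arrays of 1 of the silicate groups, which held for 21515 genes, 14799 of them with a symbol. Pools of whole tissue cannot tell fewer cells of a type from less RNA per cell.

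The retina lies between the vitreous and the pigment epithelium, and a dissected retina can carry fragments of its neighbours: lens, ciliary body, iris, pigment epithelium, muscle and surface epithelium. Lens fibre cells fill with crystallins, the proteins that give the lens its refractive power, and hold the beaded filament proteins filensin and phakinin and the membrane channel Mip. Crystallin genes of the alpha and beta families are also known to be expressed in the retina, at levels that change with injury. Large MAF transcription factors switch on crystallin genes through a DNA element whose half-site reads TGCTGA. Particles in the eye are taken up by macrophages and microglia, phagocytic cells that carry scavenger receptors such as Marco.

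The promoters of 4 crystallin genes are printed because the alpha and beta crystallins were among the genes with the highest differences described further on. Each sequence is the 250 bases before the transcription start, 5′ to 3′ on the strand of the gene, from RefSeq on GRCm38.p6, with TGCTGA or its reverse complement TCAGCA in capitals. Cryba2 lies on the minus strand at chr1:74893144-74893393, Cryaa on the plus strand at chr17:31677681-31677930, Cryba1 on the minus strand at chr11:77725294-77725543 and Crybb2 on the minus strand at chr5:113070118-113070367.
Cryba2: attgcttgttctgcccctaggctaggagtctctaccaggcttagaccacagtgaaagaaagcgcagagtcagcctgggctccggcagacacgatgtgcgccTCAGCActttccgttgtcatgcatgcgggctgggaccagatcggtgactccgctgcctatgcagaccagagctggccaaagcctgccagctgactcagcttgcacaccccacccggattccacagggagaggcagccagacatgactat
Cryaa: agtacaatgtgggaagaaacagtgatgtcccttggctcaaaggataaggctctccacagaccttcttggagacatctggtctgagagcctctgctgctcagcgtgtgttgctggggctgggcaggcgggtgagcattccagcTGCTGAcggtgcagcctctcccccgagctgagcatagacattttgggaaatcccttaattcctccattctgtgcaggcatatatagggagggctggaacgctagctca
Cryba1: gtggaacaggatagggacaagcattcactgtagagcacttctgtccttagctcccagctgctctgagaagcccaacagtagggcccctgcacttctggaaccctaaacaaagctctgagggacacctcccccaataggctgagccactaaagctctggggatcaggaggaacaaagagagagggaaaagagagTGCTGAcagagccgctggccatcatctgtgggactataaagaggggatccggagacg
Crybb2: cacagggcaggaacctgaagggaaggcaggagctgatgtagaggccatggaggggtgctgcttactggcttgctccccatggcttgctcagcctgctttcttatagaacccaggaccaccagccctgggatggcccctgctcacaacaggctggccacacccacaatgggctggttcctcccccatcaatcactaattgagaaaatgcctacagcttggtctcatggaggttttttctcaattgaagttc

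The half-site stood 149 bases before the start in Cryba2, 108 in Cryaa and 57 in Cryba1, and Crybb2 had no match in its window. It was searched on both strands and was the only motif searched. Of the alpha and beta crystallins 7 of 8 genes matched a promoter, and 6 of these 7 promoters (85.7%) held the half-site. It was in 4 of 8 gamma-crystallin promoters and in 5 of 10 promoters of lens membrane and filament genes, while 5282 of all 32851 promoters of that length held it (16.1%). A match describes the letters of the window and shows no binding.

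No gene passed the test between the silicate sizes. With limma, 0 genes were higher (0% of 21515) and 0 lower (0%) with 100 nm at an adjusted p under 0.05, and the smallest adjusted p was 0.509. At an unadjusted p under 0.05 there were 1127 genes (5.24%), 510 higher and 617 lower, close to the share that this threshold gives by itself. The median half-width of a gene's 95% interval was 0.21 on the log2 scale, and for 20938 genes (97.3%) the whole interval lay within a difference of 1 in either direction. On simulated data with the same array design, the test found 89 of 100 genes changed by 1 and 94 of 100 changed by 2 (log2 scale). There were 8 false calls among the unchanged genes of the 21478 simulated. The simulated noise was normal, with 1 spread per gene for silicate and gold alike, which is what the test assumes. The rates were not split by the spread of a gene between slides. Genes with large mean differences could have far wider intervals, from -0.60 to 4.26 for Cryba2 and from -3.59 to -0.43 for Aqp3. The simulated rates do not show how often the test would find a change in such genes. Every interval and p-value pools the spread of the silicate and gold pairs, so neither reflects the 3 silicate pairs alone. Aqp3 differed by -4.36, -1.51 and -0.16 in silicate but by -0.28, 0.09 and 0.05 in gold. All 36 gene lists described here had 0 members called in either direction, so every list is given by its values only. The lists were chosen with earlier results of these data known. A list share above that of all genes is therefore a description and not independent support.

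The differences were large on single slides and repeated in part between slides 1 and 2. On slide 1, 60 genes were higher by at least 1 (0.279%) and 232 lower by at least 1 (1.08%). On slide 2 the counts were 8 higher (0.0372%) and 248 lower (1.15%), and on slide 3 they were 141 higher (0.655%) and 34 lower (0.158%). The mean over the slides reached 1 for 16 genes above 0 (0.0744%) and 46 genes below (0.214%). Over 21495 genes, which are not independent replicates, the pair differences correlated at 0.16 between slides 1 and 2, at -0.06 between slides 1 and 3 and at -0.08 between slides 2 and 3. Of the genes lower by at least 1, slides 1 and 2 shared 51, which is 22.0% of those on slide 1 and 20.6% of those on slide 2. Another 38 genes were lower by at least 1 on slide 2 and higher by at least 1 on slide 3, and 29 were lower on slide 1 and higher on slide 3.

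The PBS channel, which holds no silicate tube, gave the spread of repeated measurement. If both arrays of a slide held the same PBS tube, which is not stated, it covers technical spread only, whereas the Cy5 difference also holds the spread between pools of retinas. The SD over genes of the Cy3 difference between the 100 nm and 20 nm arrays was 0.10, 0.11 and 0.13 on slides 1, 2 and 3, while that of the Cy5 difference was 0.33, 0.27 and 0.30. In Cy3, 29, 16 and 24 genes differed by at least 1, against 307, 275 and 288 in Cy5. No gene differed in Cy3 by at least 0.5 in the same direction on all 3 slides.

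**Figure D1:**
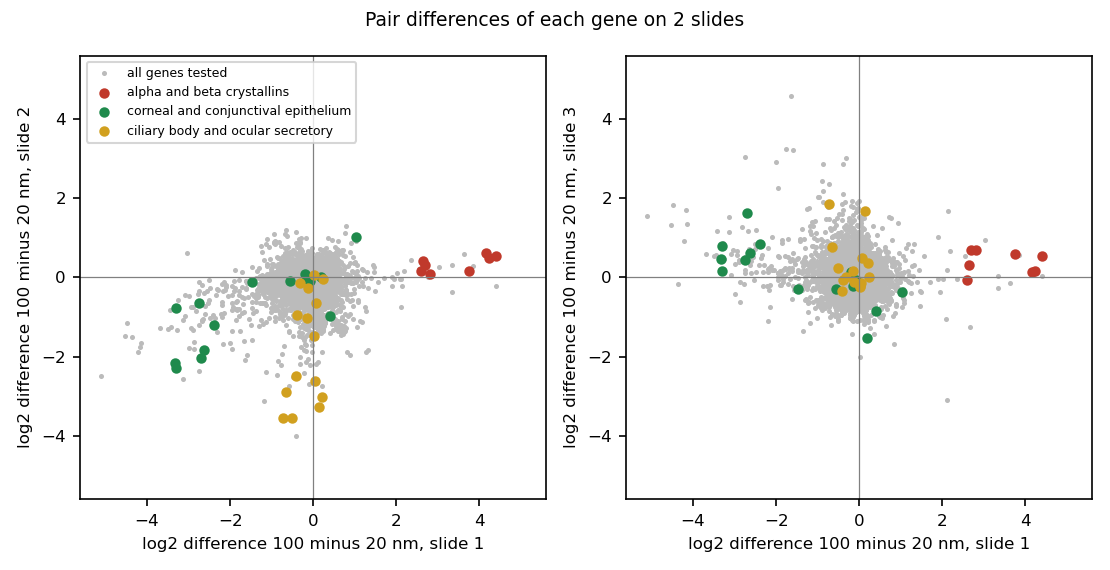
Each grey point is a gene tested, placed by its log2 difference, silicate 100 nm minus silicate 20 nm, on slide 1 (horizontal axis) and on slide 2 or slide 3 (vertical axes). The 8 alpha and beta crystallins lie far right on slide 1 and near 0 on the other slides, the corneal and conjunctival genes stretch to the left on slide 1, and the ciliary body genes stretch downward on slide 2.

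Lens genes had the highest mean differences, and slide 1 set their size. Cryba2, a beta-crystallin, had log2 ratios to PBS of 3.63, -0.29 and 1.25 in the silicate 100 nm tubes of slides 1, 2 and 3, against -0.78, -0.82 and 0.70 in the silicate 20 nm tubes. The 100 nm tube was higher on every slide, with differences of 4.41, 0.53 and 0.55 and a mean of 1.83 ± 2.23 (SD, n = 3 pairs). The 95% interval ran from -0.60 to 4.26 and the limma adjusted p was 0.935. Its Cy5 levels, in normalized log2 intensity, were 14.90, 14.34 and 15.40 with 100 nm and 10.36, 13.98 and 14.85 with 20 nm. The 20 nm tube of slide 1 thus had the lowest Cy5 level. The PBS channel of Cryba2 was low on slide 1 too, at 11.28 and 11.14 on the 100 nm and 20 nm arrays. On slides 2 and 3 that channel read between 14.15 and 14.80. Relative to PBS, the 100 nm tube of slide 1 was the one that stood apart, at 3.63. Its 20 nm partner, at -0.78, was near the 20 nm tube of slide 2, at -0.82.

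Cryaa, the alpha-crystallin that acts as a chaperone of lens proteins, had ratios of 4.02, 0.26 and 2.03 with 100 nm and of -0.21, -0.24 and 1.87 with 20 nm. Its Cy5 level was 14.36 in the 20 nm tube of slide 1 and between 17.29 and 18.27 in the other 5 silicate tubes. The PBS channel of Cryaa read 14.12 and 14.57 on the 100 nm and 20 nm arrays of slide 1. On slides 2 and 3 that channel read between 16.24 and 17.53. Crybb2, another beta-crystallin, had ratios of 3.68, -0.04 and 1.05 with 100 nm and of -0.48, -0.65 and 0.90 with 20 nm. The 100 nm tube was above its partner on each slide for both genes, and the size of the difference was 4.22 and 4.16 on slide 1 but between 0.14 and 0.61 on the others. A second probe of Cryaa and one of Crybb2 gave mean differences of 1.45 and 1.52, beside 1.63 and 1.64 for the probes used.

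All 8 alpha and beta crystallins were higher by at least 1 on slide 1 (0.279% of all genes were), and none was on slide 2 or 3. The list's median difference was 3.29, 0.37 and 0.43 on slides 1, 2 and 3, where all genes tested had medians of -0.02, -0.00 and 0.02. For 7 of the 8 the difference was above 0 on all 3 slides, which held for 2910 of all genes (13.5%), and the remaining one, the small heat-shock protein Cryab, read -0.06 on slide 3. Mean differences ran from 0.90 for Cryab to 1.83 for Cryba2, with a median of 1.37, and without slide 1 that median was 0.38. The same contrast in gold gave medians of 4.02, 2.56 and 0.03, so the list was also higher with 100 nm of gold on slides 1 and 2.

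The beaded filament genes Bfsp1 (filensin) and Bfsp2 (phakinin) had differences of 3.04, 0.26 and 0.94 and of 2.55, 0.20 and 0.55 on slides 1, 2 and 3. Bfsp1 had ratios of 1.79, -0.04 and 0.11 with 100 nm and of -1.24, -0.30 and -0.83 with 20 nm, so here the 3 tubes of 100 nm all lay above the 3 of 20 nm, with a mean difference of 1.41 ± 1.45 (SD, n = 3 pairs). Ratios did not overlap in that direction for 331 of all genes (1.54%), and the limma adjusted p of Bfsp1 was 0.935. Mip, the water channel of lens fibres, was higher by 4.39 on slide 1 and differed by -0.22 and 0.04 on slides 2 and 3. Of 10 lens membrane and filament genes tested, 8 were higher by at least 1 on slide 1, none on slide 2 and 2 on slide 3. The shares of all genes were 0.279%, 0.0372% and 0.655%. Hsf4, a heat-shock factor of the lens, differed least, by 0.17, and was the 1 member with an unadjusted p under 0.05.

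Gamma crystallins, the most abundant crystallins of the lens nucleus, followed another pattern over the slides, with medians of 0.63, -0.59 and 1.05. On slide 3 all 8 were above 0 and 6 were higher by at least 1 (0.655% of all genes were), whereas on slide 2 only 1 of 8 was above 0. Crygs, the gamma-crystallin of the outer lens, had ratios of 3.45, 0.26 and 1.78 with 100 nm against -0.40, -0.01 and 1.23 with 20 nm. Crygf differed by -0.87, -0.79 and 0.93. Cryga to Crygf are near-identical copies, and their probes may share signal. Rspo1, a secreted activator of Wnt signalling, belongs to no list and had differences of 3.33, 0.32 and 0.02 with a mean of 1.22.

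**Figure D2:**
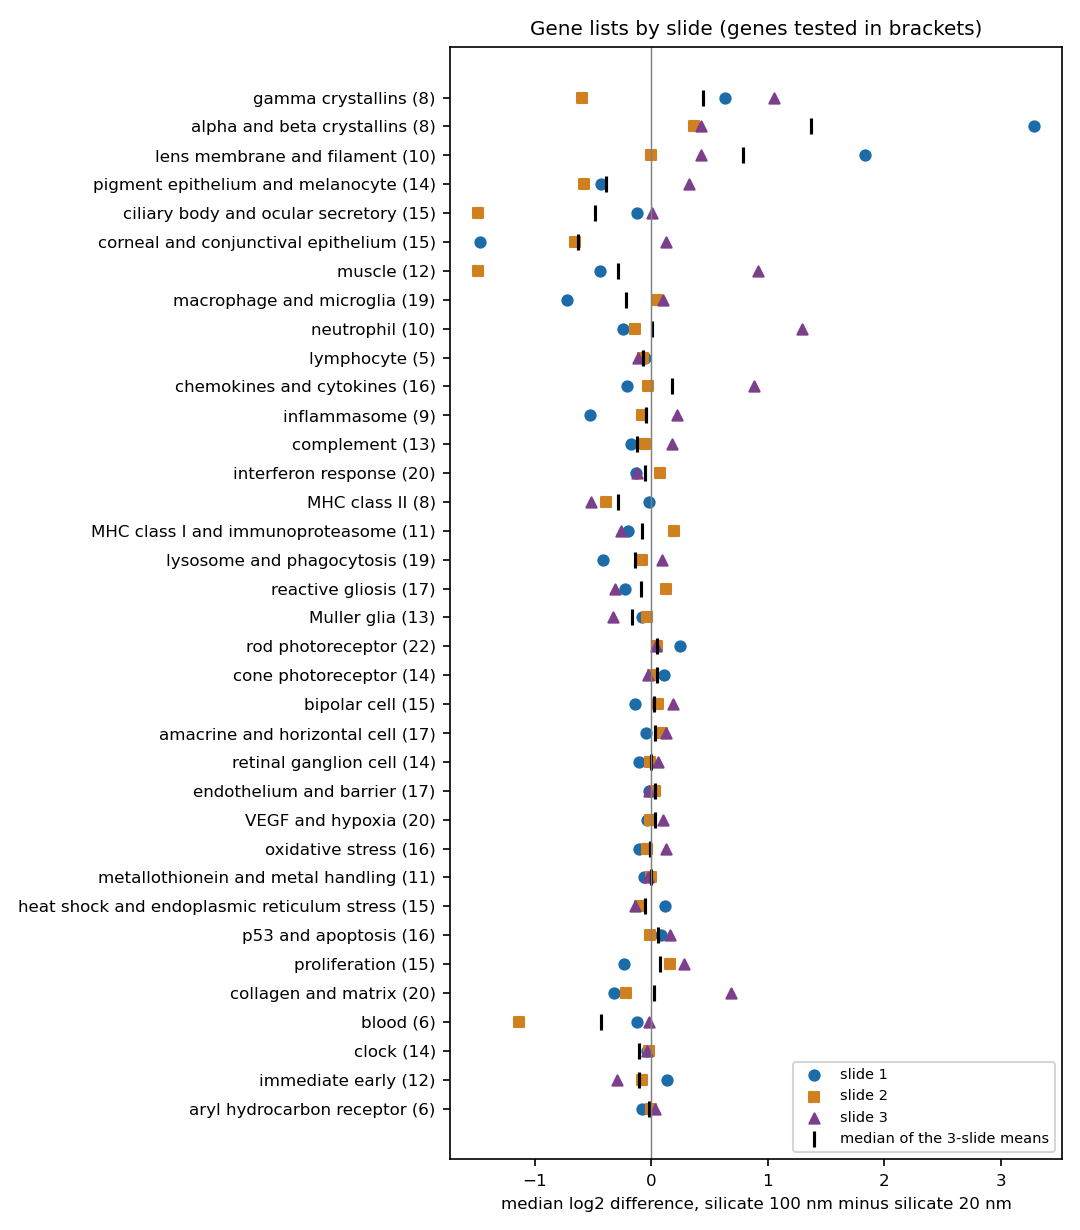
Median log2 difference, silicate 100 nm minus silicate 20 nm (horizontal axis), of the tested genes in each of 36 lists (vertical axis), by slide (coloured symbols), with the median of the 3-slide means as a black bar. The 3 slides lie far apart for lens, ciliary body, corneal, muscle and blood genes and close together for photoreceptors and other retinal neurons.

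Genes of surface epithelium were among those with the lowest mean differences. Aqp3, the water and glycerol channel of cornea and conjunctiva, had ratios of 0.09, 0.38 and -0.99 in silicate 100 nm tubes against 4.45, 1.88 and -0.83 in silicate 20 nm tubes. It was lower with 100 nm on every slide, with differences of -4.36, -1.51 and -0.16, with a mean difference of -2.01 ± 2.15 (SD, n = 3 pairs) and a limma adjusted p of 0.930. Its Cy5 level was 11.24 in the 20 nm tube of slide 1, the highest of the 6 silicate tubes, where the others lay between 6.57 and 8.29. Its PBS channel was well above background on 3 of the 6 silicate arrays, so its ratios rest in part on a dim PBS signal.

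Krt19, a keratin of conjunctival and other simple epithelia, had ratios of 1.52, 0.06 and 1.96 with 100 nm and of 4.83, 2.34 and 1.78 with 20 nm. The difference was -3.31 on slide 1 and -2.28 on slide 2 but 0.17 on slide 3. Krt12, the keratin specific to corneal epithelium, differed the other way, by 1.02, 1.03 and -0.36. Its ratio on slide 3 was -4.77 with 100 nm and -4.41 with 20 nm. There its PBS channel read 13.09 and 13.12, against values between 7.15 and 7.34 on slides 1 and 2. The Cy5 level of Krt12 with 100 nm was 8.44, 8.81 and 8.33 on the 3 slides. Of 15 corneal and conjunctival genes tested, 14 had a mean below 0 (10939 of all 21515 genes did) and 4 were below 0 on all 3 slides (13.5% of all genes were). Lower at a limma unadjusted p under 0.05 were 5 of the 15 (2.87% of all genes were). At that threshold 4 of 19 lysosome, 3 of 14 pigment and 3 of 13 complement genes were also lower. Higher were 3 of 22 rod genes (2.37% of all genes were). The corneal and conjunctival median was -1.47, -0.66 and 0.13 on slides 1, 2 and 3. The mean over slides 1 and 2 alone gave a median of -0.79.

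Other genes among the lowest were Stfa1, Stfa3 and Cstdc5, inhibitors of cysteine proteases of the stefin A family. Stfa1 had ratios of -0.02, 2.28 and -2.33 with 100 nm against 2.84, 3.92 and -1.70 with 20 nm, so each 100 nm tube was below its partner while the ratios of the groups overlapped. Its mean difference was -1.71 ± 1.12 (SD, n = 3 pairs), with an interval from -2.60 to -0.82 and a limma adjusted p of 0.930. That interval also pools the spread of the gold pairs, which differed by 0.69, -0.18 and 0.01. Stfa3 and Cstdc5 had means of -1.40 and -1.60. The stefin A genes are near copies of each other, and their probes may share signal. Fxyd3, a regulator of the sodium pump, the epithelial transcription factor Ehf, Nccrp1 and the keratin Krt42 had means between -1.16 and -1.01.

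Of the 22 genes named by rank, 11 higher and 11 lower, none passed the test, and all had a mean difference of at least 1 in the same direction on all 3 slides. The remaining lower ones were Gpnmb, Gpx3 and Serpina3n. Gpnmb, a glycoprotein of melanosomes and lysosomes, had ratios of -1.82, 0.12 and 2.88 with 100 nm against 1.17, 1.90 and 3.30 with 20 nm. The 20 nm tube was higher on each slide, and the ratio of both sizes was highest on slide 3. Serpina3n, a protease inhibitor made by reactive glia, had a difference of -2.76 on slide 1, and of -0.43 and -0.16 on slides 2 and 3.

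**Figure D3:**
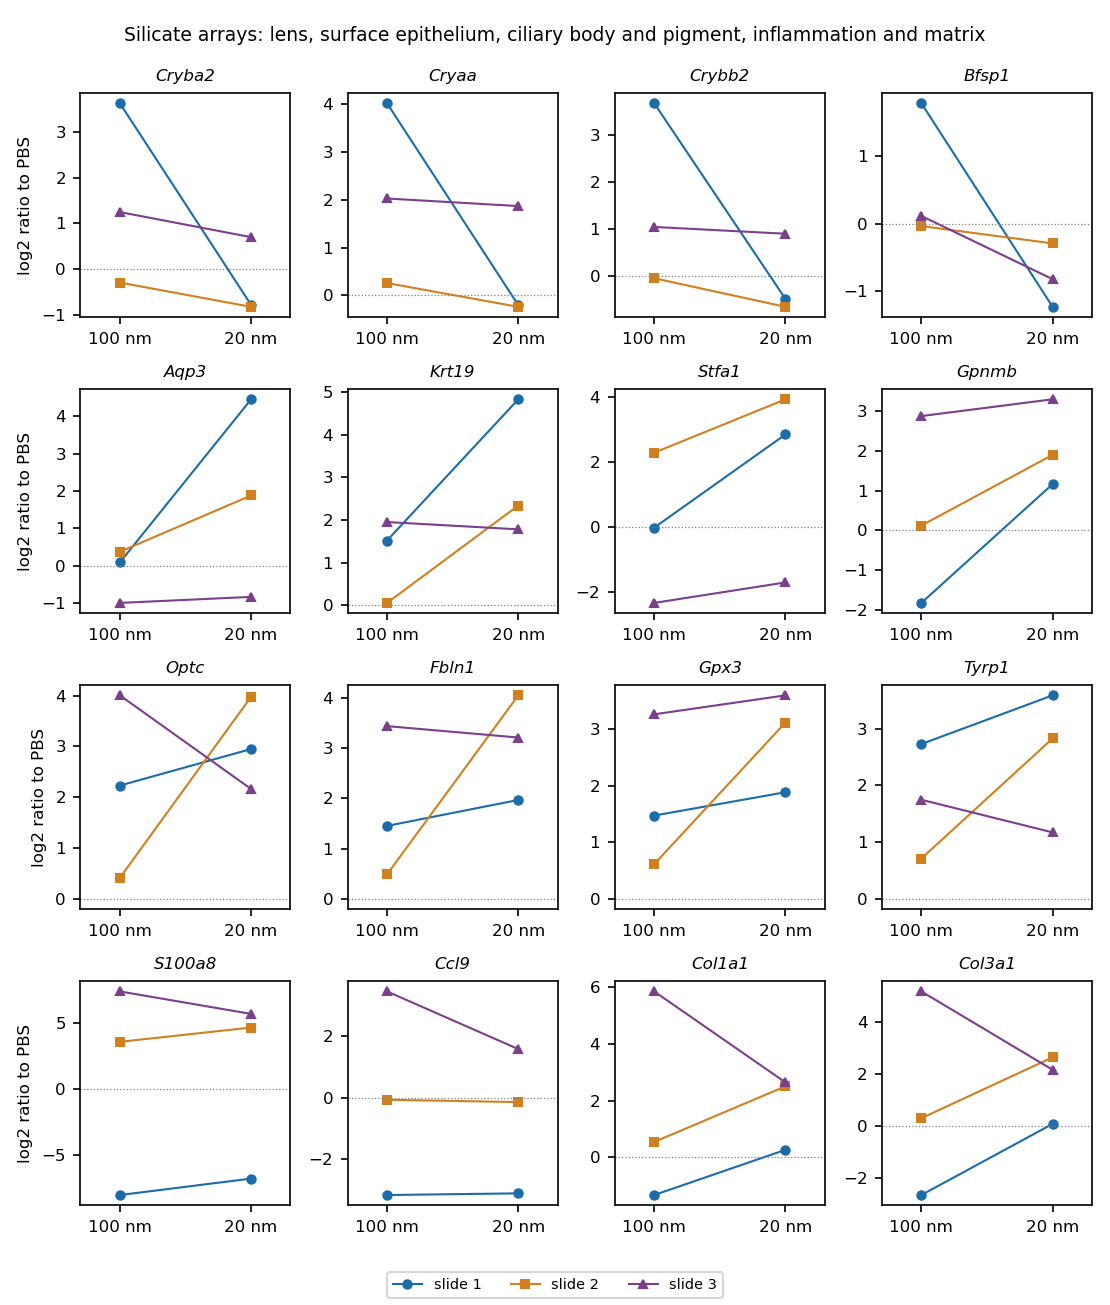
Log2 ratios to PBS (vertical axes, scaled for each gene) in the silicate 100 nm and silicate 20 nm tubes of 16 genes, with a line for each slide. The 4 lens genes of the top row lie far higher at 100 nm on slide 1, Aqp3, Krt19, Stfa1 and Gpnmb lie lower at 100 nm on slides 1 and 2, Optc and Fbln1 lie far lower on slide 2, and Col1a1 and Col3a1 lie higher on slide 3 and lower on the other slides.

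Genes of the ciliary body and of ocular secretion differed mostly on slide 2. Optc encodes opticin, a proteoglycan of the vitreous made by the ciliary epithelium, and had ratios of 2.23, 0.42 and 4.0 with 100 nm against 2.95, 3.98 and 2.16 with 20 nm. The difference was -0.72 and -3.56 on slides 1 and 2 and 1.84 on slide 3, with a mean of -0.81 ± 2.70 (SD, n = 3 pairs). The matrix protein gene Fbln1 had ratios of 1.45, 0.49 and 3.44 with 100 nm against 1.97, 4.05 and 3.21 with 20 nm. For both genes the 100 nm tube of slide 2 had the lowest ratio of the 6. The PBS channel of Fbln1 was well above background on 5 of the 6 arrays.

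Gpx3, a secreted glutathione peroxidase, had ratios of 1.47, 0.61 and 3.26 with 100 nm against 1.89, 3.12 and 3.60 with 20 nm, and was lower with 100 nm on every slide. Its mean difference was -1.08 ± 1.23 (SD, n = 3 pairs) and its limma adjusted p 0.930. In the PBS channel Gpx3 also read lower on the 100 nm array, by differences of -0.12, -0.55 and -0.40. Of 15 tested genes of this list 14 had a mean below 0 (10939 of all 21515 genes did). On slide 2, 9 were lower by at least 1 (1.15% of all genes were), with none on slide 1 and none on slide 3. The medians were -0.12, -1.49 and 0.01, and the median of the means was -0.04 without slide 2 and -0.48 with it.

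Pigment genes were lower on slides 1 and 2 and mostly higher on slide 3. Tyrp1, an enzyme of melanin synthesis, had ratios of 2.73, 0.71 and 1.75 with 100 nm against 3.59, 2.83 and 1.17 with 20 nm. All 14 pigment epithelium and melanocyte genes tested were below 0 on slides 1 and 2, and 10 of the 14 were above 0 on slide 3. The medians were -0.43, -0.58 and 0.32, where all genes tested had -0.02, -0.00 and 0.02. Rpe65, the isomerase of the visual cycle, differed by -0.17, -0.42 and 0.08. Trpm1, a channel also found in bipolar cells, had a mean of 0.07 with the probe used, and of -0.37 and -0.07 with its other probes. The first of these differed by -1.57 on slide 2.

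Muscle genes had medians of -0.44, -1.49 and 0.92 over 12 tested genes, where all genes tested had -0.02, -0.00 and 0.02. Tnni2, the inhibitory troponin of fast skeletal muscle, had ratios of -1.87, 0.49 and 3.89 with 100 nm against -0.68, 3.61 and 2.58 with 20 nm. It was lower with 100 nm on slides 1 and 2 and higher on slide 3, where all 12 muscle genes were above 0. The median of the means was -0.29, and 0.04 when only genes well above background on all 6 silicate arrays were kept. Blood genes, 6 tested, had medians of -0.13, -1.14 and -0.02, and the haemoglobin gene Hba-a1 differed by -0.16, -1.46 and -0.04.

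Genes of macrophages, neutrophils and their signals had very different ratios to PBS from slide to slide, and the pair differences were much smaller than that. Part of this lay in the PBS channel, as the PBS levels of S100a8 and Cd14 given below show. The median ratio of 19 macrophage and microglia genes was -2.50, 0.23 and 3.58 with 100 nm, against -1.83, 0.37 and 3.25 with 20 nm. Pair differences had medians of -0.73, 0.05 and 0.10, and 18 of the 19 were below 0 on slide 1, where the median of all genes was -0.02. Lyz2, the lysozyme of macrophages, differed by -1.02, -0.35 and 0.10, and C1qa, a chain of complement C1q, by -0.79, 0.26 and -0.37. On slide 3 the PBS channel of Lyz2 itself read 0.64 higher on the 100 nm array.

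On slide 3 several inflammatory genes were higher with 100 nm. S100a8, a calcium-binding protein of neutrophils, had ratios of -8.07, 3.59 and 7.42 with 100 nm against -6.82, 4.68 and 5.71 with 20 nm. Its differences were -1.25, -1.09 and 1.71, opposite on slide 3 to the other slides, and the mean was -0.21 ± 1.67 (SD, n = 3 pairs), or 0.11 from the deposited value table. Its PBS channel was well above background on 4 of the 6 arrays, and its Cy5 levels were 7.60, 10.06 and 14.56 with 100 nm against 8.80, 11.16 and 12.37 with 20 nm. Its PBS levels were 15.67, 6.48 and 7.13 on the 100 nm arrays and 15.62, 6.48 and 6.66 on the 20 nm arrays. The negative ratios of slide 1 thus went with a high PBS level there. Over 10 neutrophil genes tested, the medians were -0.24, -0.14 and 1.29. On slide 3, 6 were higher by at least 1 (0.655% of all genes were). On slides 1 and 2, 2 and 3 were lower by at least 1 (1.08% and 1.15% of all genes were).

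Ccl9, a chemokine of macrophages, had ratios of -3.19, -0.07 and 3.47 with 100 nm against -3.13, -0.15 and 1.59 with 20 nm. Cd14, the co-receptor for bacterial lipopolysaccharide, had ratios of -5.03, 0.22 and 4.12 with 100 nm against -4.69, 0.06 and 2.23 with 20 nm. On the 100 nm arrays its PBS level was 13.41, 8.06 and 8.54, and its Cy5 level was 8.38, 8.29 and 12.67. The scavenger receptor Marco, which binds unopsonized particles, had ratios of -3.94, 0.10 and 6.04 with 100 nm against -3.90, 0.10 and 4.30 with 20 nm. For these 3 genes the differences were 1.89, 1.89 and 1.74 on slide 3 and lay between -0.35 and 0.17 on slides 1 and 2. Marco also read 0.79 higher in the PBS channel of the 100 nm array of slide 3. Of 16 chemokines and cytokines tested, 7 were higher by at least 1 on slide 3 (0.655% of all genes were), none on slides 1 and 2.

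Inflammasome genes, 9 tested, had medians of -0.53, -0.08 and 0.22, complement genes, 13 tested, of -0.18, -0.06 and 0.18, and interferon-induced genes, 20 tested, of -0.14, 0.07 and -0.12. C3, the central complement component, was lower with 100 nm on each slide, with ratios of -3.76, 0.65 and 5.31 with 100 nm against -2.38, 1.28 and 5.64 with 20 nm and a mean difference of -0.78 ± 0.54 (SD, n = 3 pairs). All 8 MHC class II genes had a mean below 0 (10939 of all 21515 genes did), and the medians of the list were -0.02, -0.39 and -0.52. Cd74, the invariant chain, differed by 0.23, -1.36 and -0.66. In the PBS channel of slide 3 the median of that list was also lower on the 100 nm array, by a difference of -0.34. MHC class I and immunoproteasome genes, 11 tested, had medians of -0.20, 0.19 and -0.26, lysosome genes, 19 tested, of -0.42, -0.08 and 0.09, and lymphocyte genes, 5 tested, of -0.06, -0.07 and -0.12.

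The fibrillar collagens Col1a1 and Col3a1 were lower with 100 nm on slides 1 and 2 and higher on slide 3. Col1a1, a chain of type I collagen, had ratios of -1.33, 0.54 and 5.85 with 100 nm against 0.27, 2.50 and 2.64 with 20 nm. Col3a1, of type III collagen, had ratios of -2.67, 0.30 and 5.20 with 100 nm against 0.08, 2.65 and 2.17 with 20 nm, and its mean difference was -0.69 ± 3.23 (SD, n = 3 pairs). The 100 nm tube thus lay below its partner on 2 slides and above it on slide 3 for both genes, and their adjusted p with limma was 0.997 and 0.956. The PBS channel of Col3a1 read 1.27 higher on the 100 nm array of slide 3. Col4a1, of basement membranes, differed by 1.89, 0.02 and -0.05. Of 20 collagen and matrix genes tested, 8 were higher by at least 1 on slide 3 (0.655% of all genes were). On slides 1 and 2, 6 each were lower by at least 1 (1.08% and 1.15% of all genes were).

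Genes of the retina itself differed little between the sizes. All 22 rod genes were well above background on all 6 silicate arrays, as were all 14 cone, 15 bipolar, 17 amacrine and horizontal, 14 ganglion cell and 13 Muller glia genes tested. Sag, rod arrestin, was higher with 100 nm on each slide, by 0.24, 0.43 and 0.37. The rod median was 0.25, 0.05 and 0.04. On slide 1, where the median of all genes was -0.02, 19 of 22 rod genes were above 0. With the probe used for each gene, none in these 6 lists differed by 1 or more on any slide.

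Opn1sw, the short-wavelength cone opsin, had ratios of 0.63, 0.89 and -0.65 with 100 nm against -0.09, 0.21 and -0.77 with 20 nm, and the medium-wavelength opsin Opn1mw differed by -0.12, -0.36 and -0.08. The Opn1sw mean was 0.51 ± 0.33 (SD, n = 3 pairs), with an interval from 0.22 to 0.80 and a limma adjusted p of 0.930. The cone list had medians of 0.11, 0.02 and -0.03, bipolar genes of -0.14, 0.05 and 0.19, and amacrine and horizontal genes of -0.04, 0.09 and 0.13. Ganglion cell genes had medians of -0.11, -0.01 and 0.06, and the neurofilament gene Nefl had a mean of -0.13.

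Among glial genes, Gfap, the filament protein of reactive Muller glia and astrocytes, had ratios of -1.08, 0.31 and 1.55 with 100 nm against 0.10, -0.13 and 2.71 with 20 nm. It was lower with 100 nm on slides 1 and 3 and higher on slide 2, and the same contrast in gold had a mean of -1.18. Apoe, the apolipoprotein made by Muller glia and macrophages, was lower on each slide, with differences of -0.51, -0.30 and -0.57 and an interval from -0.69 to -0.22. The reactive gliosis list of 17 tested genes had medians of -0.23, 0.13 and -0.31, and the Muller glia list of -0.08, -0.03 and -0.33.

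Vegfa, the growth factor that drives retinal neovascularization, had ratios of 0.12, 0.33 and 0.46 with 100 nm against 0.26, 0.46 and 0.50 with 20 nm. Its mean difference was -0.10 ± 0.06 (SD, n = 3 pairs), with an interval from -0.26 to 0.05, and its second probe read -0.01. The 20 tested genes of VEGF signalling and hypoxia had medians of -0.04, -0.01 and 0.10, and the 17 endothelial and barrier genes of -0.02, 0.03 and -0.02. Angpt2, which destabilizes vessels, was higher by 0.99 on slide 3 and differed by -0.04 and 0.12 on the others. Slc2a1, the glucose transporter of the blood-retinal barrier, differed by -0.17, -0.33 and -0.24.

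The oxidative stress, metal, heat shock and p53 lists had medians within 0.16 of 0 on each slide. The 16 oxidative stress genes had medians of -0.11, -0.04 and 0.12. Haem oxygenase, Hmox1, had ratios of -2.96, -0.02 and 1.05 with 100 nm against -2.94, 1.68 and 1.35 with 20 nm, so its mean of -0.67 came from slide 2, where its second probe differed by only -0.10. Metallothionein and metal genes, 11 tested, had medians of -0.06, -0.00 and -0.03, heat shock and endoplasmic reticulum stress genes, 15 tested, of 0.12, -0.09 and -0.14, and p53 and apoptosis genes, 16 tested, of 0.08, -0.01 and 0.16. Proliferation genes, 15 tested, had medians of -0.23, 0.16 and 0.28. On slide 1, 3 of the 15 were lower by at least 1 (1.08% of all genes were). Birc5 differed by -1.33, -0.48 and 0.97, Mki67 by -1.07, -0.38 and 0.76, and Bub1b by 0.59, 0.35 and 0.14. Of the 15, 11 had a mean above 0 (10576 of all 21515 genes did). Clock genes, 14 tested, had medians of -0.04, -0.02 and -0.03. Immediate early genes, 12 tested, had 0.14, -0.08 and -0.29, and aryl hydrocarbon receptor genes, 6 tested, -0.08, -0.00 and 0.03. The medians of the oxidative stress, metal, inflammasome, heat shock, ganglion cell, neutrophil and aryl hydrocarbon receptor lists changed sign under another normalization or scale.

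A few genes of moderate size repeated on all 3 slides, and those named here were chosen after their values were seen. At least 0.5 higher on every slide were 3 genes (0.0139%), Hdc, Csrp3 and Cryba2, and at least 0.5 lower were 13 genes (0.0604%). For gold of 100 nm against 20 nm the counts were 50 and 18. Hdc, the enzyme that makes histamine, had ratios of -0.70, -0.23 and -0.88 with 100 nm against -1.31, -0.81 and -1.65 with 20 nm. Its mean difference was 0.66 ± 0.10 (SD, n = 3 pairs), with an interval from 0.49 to 0.82, and its limma adjusted p of 0.509 was the smallest of all genes. In Cy3 its differences were 0.01, -0.04 and -0.03.

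Csrp3, a LIM protein of striated muscle, had ratios of -0.54, -0.43 and -1.10 with 100 nm against -1.24, -1.12 and -1.62 with 20 nm. Its 3 tubes of 100 nm all lay above those of 20 nm, but narrowly, the lowest at -1.10 against the highest at -1.12. Ratios lay apart in that direction for 331 of all genes (1.54%). The Csrp3 difference of 0.63 ± 0.10 (SD, n = 3 pairs) did not pass, at a limma adjusted p of 0.551. Igfbp5, which binds insulin-like growth factors, had ratios of 0.38, 0.33 and 1.73 with 100 nm against 1.29, 1.04 and 2.50 with 20 nm. The 20 nm tube was higher on each slide, the mean difference was -0.80 ± 0.10, and the gold contrast had a mean of 0.33. Set against gold, the difference of Igfbp5 was -1.13, at a limma adjusted p of 0.251.

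Oxtr, the oxytocin receptor, had ratios of -0.54, -0.45 and -0.58 with 100 nm against 0.22, 0.54 and 0.12 with 20 nm. The groups did not overlap, the mean difference was -0.82 ± 0.15 (SD, n = 3 pairs), and the limma adjusted p was 0.537. Ratios of 100 nm lay wholly below those of 20 nm for 375 of all genes (1.74%). Tff1, a trefoil peptide of mucosal epithelium, had ratios of 0.28, 0.67 and 1.20 with 100 nm against 1.02, 1.58 and 1.80 with 20 nm, and was well above background on 2 of the 3 arrays of 100 nm and in the PBS channel of 3 of the 6 silicate arrays. Its second probe read -0.84, beside -0.75 for the probe used. The others at least 0.5 lower on every slide were Stfa1, the lipid carrier gene Apod (-0.99, -0.80 and -0.60), the calcium-binding protein gene S100a3 (-0.92, -0.82 and -0.74), the membrane transporter gene Flvcr2 (-0.65, -0.69 and -0.52), Trim12c, Nhsl1, Nyap1, Ccny and 2 transcripts with no symbol here. A second probe of Trim12c differed by 0.01, -0.40 and -0.57.

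**Figure D4:**
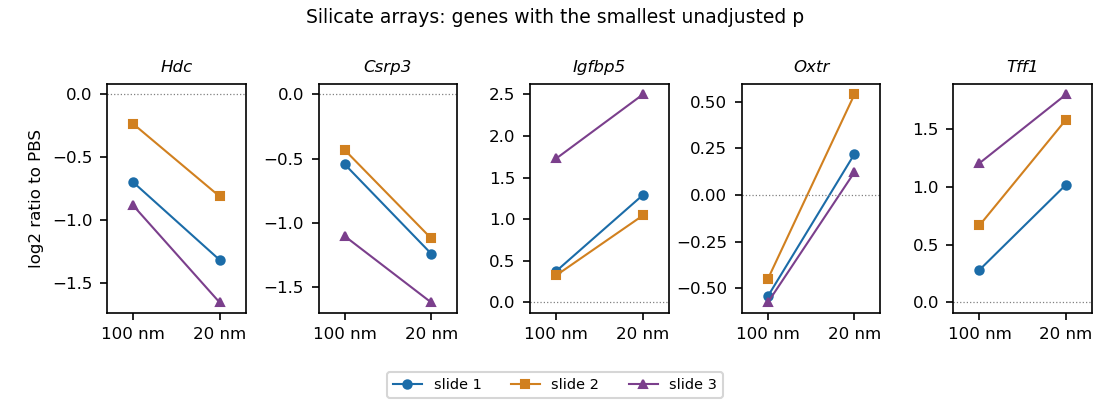
Log2 ratios to PBS (vertical axes, scaled for each gene) in the silicate 100 nm and silicate 20 nm tubes of the 5 genes with the smallest unadjusted p, with a line for each slide. Hdc and Csrp3 are higher with 100 nm on every slide and Igfbp5, Oxtr and Tff1 lower, and none passed after adjustment over all genes.

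The size difference of silicate was also set against that of gold. With limma, 0 genes differed between the materials at an adjusted p under 0.05 (0% of 21515), the smallest adjusted p was 0.251, and 1022 genes had an unadjusted p under 0.05. Aqp3 had a mean difference of -2.01 in silicate and -0.05 in gold, and Stfa1 of -1.71 in silicate and 0.17 in gold, at limma adjusted p of 0.999 and 0.825 for the difference between materials. Flvcr2, named after its values were seen, had a limma adjusted p of 0.251 for the difference between materials. It differed by -0.65, -0.69 and -0.52 in silicate and by 1.06, 0.78 and 0.55 in gold. The alpha and beta crystallins Cryba2 and Cryaa had positive means in both materials. Cryba2 had differences of 4.41, 0.53 and 0.55 in silicate and of 4.82, 2.65 and -0.11 in gold, and Cryaa of 4.22, 0.50 and 0.16 in silicate and of 5.01, 3.56 and 0.06 in gold. The silicate and gold pairs of a slide share no particle tube, but lie on the same slide.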

How the data were processed

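The deposited scanner files hold intensity per spot, which per the file headers came from version 11.0.1.1 of Agilent's extraction software, while the submitters' processing notes name 9.3.2.1. The deposited value table holds log2 ratios, found by setting it against the deposited log10 ratios of Cy5 over Cy3 in the scanner files, and how it was centred is not given in the sources used here. Median signals were background-corrected with normexp (offset 50) and normalized by loess within each array in limma 3.58.1 (R 4.3.3, with version 1.17.8 of data.table), with the 1377 control spots at weight 0 and outlier spots left out. Cy5 and Cy3 levels were further scaled with limma's Aquantile. The 43020 spots were averaged to 39429 probes, of which 26055 had a symbol by RefSeq accession (GRCm38.p6, names only). Of these probes 26406 passed the filter on dim signals, and the brightest probe stood for its gene.

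The test was limma's lmFit and eBayes on log2 ratios, two-sided, with Benjamini-Hochberg adjustment over 21515 genes and a threshold of 0.05. The fit held all 12 arrays with a block for each of 6 pairs (slide by material) and a size term for each material, which left 4 residual degrees of freedom and 3.01 from the prior. An exact sign-change test over 3 pairs cannot go below 0.25 and was not used. The file headers show that the arrays of a replicate number share a slide, and deviations from the group means correlated between the silicate arrays of a slide at 0.925, 0.464 and 0.922 across genes, so the number pairs the arrays. Which PBS tube was on which array is not stated.

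Named by rule were up to 12 genes in each direction that passed the test or, failing that, had the smallest unadjusted p among genes with a mean difference of at least 1 in the same direction on all 3 slides (11 in each direction), and in each of 36 lists the first, highest and lowest member. The comparison, the lists (540 symbols, 483 tested) and the rules were chosen with earlier results of these data known. The test was checked on simulated data. Alternatives covered the block, the samples in the fit, the measure, background, normalization, filter, probe choice, value table and each replicate. Figures were drawn with matplotlib 3.10.9.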

Additional observations from a re-analysis of the deposited data

How the results depend on the processing

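No gene passed an adjusted p under 0.05 between silicate 100 nm and 20 nm, in either direction, under any of the 17 alternatives run, and none did for the difference between silicate and gold under the 6 run for it. The lowest and highest counts were 0 and 0 without replicate 1, 2 or 3 in turn. The smallest limma adjusted p lay between 0.117 without replicate 3 and 1.00 with no replicate block. Pairing changed no call but moved the count of genes at an unadjusted p under 0.05, which was 1127 with the block, 184 with no replicate block over 12 arrays, 121 with none over the 6 silicate arrays, 579 with the slide alone as block and 621 with the slide as a random block (consensus correlation 0.512). It was between 1035 and 1429 under the other measures and normalizations, and 1666 of 32495 genes with no filter on dim probes. Outside the replicates left out, the 22 genes named by rank kept their direction in all 308 values, and 21 of 504 list medians and 11 of 1758 gene values changed sign. Without replicates 1, 2 and 3 in turn, 16, 11 and 15 of the 126 named genes and 7, 5 and 12 of the 36 list medians changed sign. Median centring moved the median of all genes to 0.04. A single slide moved several lists. Without slide 1 the median of the alpha and beta crystallins was 0.38 (1.37 with it) and that of the corneal genes -0.19 (-0.63 with it). Without slide 2 the muscle median was 0.32 (-0.29 with it) and the pigment median -0.08 (-0.39 with it). Without slide 3 the median of the chemokines was -0.10 (0.18 with it) and that of the collagen and matrix genes -0.34 (0.02 with it). With 3 pools a size, the precision is limited by the number of arrays.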
